A study of Mus musculus with 24 samples.

Results

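The E2F and DP transcription factors were followed at the mRNA level in mouse embryonic fibroblasts (MEFs) that had lost Myc, Mlx or both. The members were taken by gene symbol. They were the activators E2f1, E2f2 and E2f3, the repressors E2f4, E2f5, E2f6, E2f7 and E2f8, and the partners Tfdp1 and Tfdp2, which encode DP1 and DP2. These 10 genes were found among the 41710 genes of both deposited tables, and all 10 were high enough to be tested in each. In primary MEFs, E2f2, E2f4, E2f7, E2f8 and Tfdp1 fell after the loss of Myc and after the loss of both factors, whereas E2f1 and E2f3 passed the test in no primary comparison. In immortalized MEFs, E2f1 and E2f8 rose and E2f3 fell in each of the 3 knockout groups. The rise of E2f8 after the loss of Mlx alone passed limma's test narrowly (adjusted p = 0.0438). It was kept in 2 of 12 fits with 1 library left out.

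E2F proteins bind short GC-rich sites in the promoters of genes for DNA replication and cell cycle entry, in most cases as heterodimers with a DP protein. Proteins of the retinoblastoma (Rb) family hold them inactive until cyclin-dependent kinases (CDKs) phosphorylate Rb in late G1. E2f7 and E2f8 bind DNA without DP, and E2f6 lacks the Rb-binding region and works with Polycomb proteins. Several E2F genes are E2F targets themselves, and Myc, which binds the E-box CACGTG together with Max, is known to act on the same G1/S transition. SV40 T-antigen, which was used to immortalize the second set of cells, binds and disables the Rb family and p53.

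The cells came from pooled embryos (at least 6 per pool) that carried floxed Myc alleles, floxed Mlx alleles or both, together with a ROSA26 promoter-driven CreER transgene. MycKO, MlxKO and double-knockout (DKO) cells had been exposed to 500 nM 4-hydroxytamoxifen (4OHT) for 7 days as primary cells or for 10 days after immortalization, were then kept in 250 nM, and were free of it for at least 3 days before study. WT cells had intact loci. Immortalized WT cells had been kept free of 4OHT, while for primary cells both 4OHT and its ethanol vehicle were in use, and which of them the sequenced WT cells received is not given in the sources used here. Immortalized cells of all 4 genotypes expressed SV40 T-antigen from a lentivirus and had been selected in blasticidin. Each genotype was sequenced as 3 libraries in each of the 2 sets, 24 in all, and primary RNA was from day 10. The study speaks of biological replicates, while the labels give triplicate RNAs and do not say whether these came from separate pools of embryos, so that p-values measure the spread between these samples, which may be technical, and genotype, cell pool and 4OHT exposure cannot be told apart.

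The genes lie on 9 chromosomes in GRCm39 (GENCODE vM39). Among the activators, E2f1 spans chr2:154401326-154411812 on the minus strand, E2f2 spans chr4:135899585-135923368 on the plus strand and E2f3 spans chr13:30090558-30170046 on the minus strand. The repressors are E2f4 at chr8:106024243-106032003 (plus), E2f5 at chr3:14643676-14672404 (plus), E2f6 at chr12:16860874-16890766 (plus), E2f7 at chr10:110581300-110623245 (plus) and E2f8 at chr7:48516176-48531452 (minus). Tfdp1 spans chr8:13388555-13428448 and Tfdp2 spans chr9:96078150-96205699, both on the plus strand. Of the 50-base stretches of Tfdp1 transcripts, 9.13% also occur in the gene Gm7390, for which no value was used here, and the other members share at most 1.96% with any other gene. Exons of E2f3, E2f4, E2f7 and E2f8 overlap a long noncoding RNA on the opposite strand, and those of E2f5 overlap Rbis. The libraries were directional, but whether strand was used in counting is not given in the sources used here, so the values of these 5 genes may hold reads of their partners.

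The promoters were read because several members fell together in primary cells. RefSeq promoters (300 bases, 250 before and 50 after the start; the table is on GRCm38.p6, and each sequence was placed on GRCm39 by exact match) were at hand for 8 of the 10 members, E2f4 and E2f5 being the exceptions. The letters TTTCCCGC, TTTCGCGC, TTTGCCGC, TTTGGCGC and GGCGGGAA (the last overlaps the reverse complement of the first) were searched on both strands as E2F motifs, and CACGTG as the E-box. Of 32851 promoters, 3.89% held such an E2F motif and 7.15% held CACGTG. E2F letters were found before the RefSeq start in Tfdp1, E2f7 and E2f3 and after it in E2f2, and CACGTG in Tfdp1 and E2f3. The E2F letters of Tfdp1 and the second promoter of E2f3 lie inside the GENCODE span of the gene, whose outermost transcript starts further upstream. None of the letters lay in these windows of E2f1, E2f6, E2f8 or Tfdp2. The windows of E2f1 and Tfdp2 lie wholly inside the GENCODE span of the gene, and those of E2f6 and E2f8 partly. Bases before the outermost start were thus not searched for E2f1 and Tfdp2, and only in part for E2f6 and E2f8. Shown here are the stretches of the members with a match before the RefSeq start, with the matched letters in capitals, 5′ to 3′ on the strand of the gene. A match is a description of the letters and not evidence of binding.
Tfdp1, E-box, chr8:13388501-13388550, plus strand: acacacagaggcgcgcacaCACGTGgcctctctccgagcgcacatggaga
Tfdp1, E2F letters, chr8:13388697-13388726, plus strand: gggcgccgaagGCGCGAAAaggcgcgcagg
E2f7, E2F letters, chr10:110581077-110581134, plus strand: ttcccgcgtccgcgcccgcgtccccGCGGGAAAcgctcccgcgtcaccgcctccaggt
E2f3, first promoter, E2F letters, chr13:30170047-30170083, minus strand: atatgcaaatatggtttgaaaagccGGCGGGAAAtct
E2f3, second promoter, E-box, chr13:30168382-30168409, minus strand: gacgtttcgcaCACGTGcgcggaggacg

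The libraries held between 15986856 and 20966163 reads on genes, and 3 reads corresponded to between 0.145 and 0.196 CPM (reads relative to library size, scaled between libraries by the authors), a floor that covers counting error only. Primary and immortalized values were scaled apart and were not tested against each other. Myc had 89.8 to 100.1 CPM in primary WT libraries, 25.8 to 26.8 in MycKO and 19.9 to 22.9 in DKO. In immortalized cells it had 39.9 to 177.5 CPM in WT, 9.96 to 17.2 in MycKO and 4.25 to 8.02 in DKO. Mlx had 20.5 to 26.0 CPM in primary WT, 13.0 to 14.0 in MlxKO and 9.73 to 12.0 in DKO, and 20.5 to 25.1, 12.1 to 17.0 and 14.5 to 18.0 in the immortalized groups, so that the targeted genes were lower in the libraries labelled as knockouts and were not at 0. In immortalized DKO cells the log2 difference of Mlx from WT was -0.44 and did not pass limma's test (adjusted p = 0.0694), although no library overlapped. The value of a gene includes exons outside the floxed part. The immortalized library WT4 stood apart: its mean correlation with the other WT libraries, across genes, was 0.986 against 0.991 and 0.992 for those, its CPM sum was the highest, and it alone set the upper Myc value. Immortalized comparisons of members and lists with WT are therefore given also without it. The 10 fibroblast markers were all detected and summed to between 38976 and 55971 CPM in primary libraries and between 13999 and 29520 in immortalized ones. Macrophage markers summed to between 51.6 and 575 CPM in primary libraries and between 5.80 and 12.2 in immortalized ones, with between 2 and 5 of the 10 listed at 0 in a whole immortalized group.

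To compare levels between genes, CPM was divided by the length of the canonical transcript. Per kb, Tfdp1 led the family in every group of both sets, with 63.5 ± 2.88 CPM per kb (SD, n = 3) in primary WT cells. E2f4 (30.3 ± 0.58) and E2f6 (29.1 ± 2.00) followed there and overlapped each other. E2f1 stood at 14.0 ± 0.977 and E2f3 at 9.13 ± 0.517, with no overlap between these neighbours. E2f8 (5.84 ± 0.955) and E2f5 (5.83 ± 0.858) overlapped, E2f7 stood at 4.31 ± 0.342 and Tfdp2 at 3.44 ± 0.124. E2f2 was last in every group, at 0.822 ± 0.231 in primary WT cells. In immortalized WT cells the order was Tfdp1 (99.4 ± 25.4), E2f4 (30.3 ± 7.34), E2f6 (27.7 ± 5.21), E2f1 (18.8 ± 1.20), E2f3 (12.2 ± 0.901), E2f7 (12.1 ± 0.998), Tfdp2 (8.97 ± 1.501), E2f8 (8.66 ± 0.737), E2f5 (6.70 ± 3.12) and E2f2 (0.701 ± 0.119). There E2f4 overlapped E2f6, E2f3 overlapped E2f7, Tfdp2 overlapped E2f8 and E2f8 overlapped E2f5. These places depend on the length used. Annotated exons of E2f6 cover 11997 bases against 2449 in its canonical transcript, and those of E2f4 cover 5775 against 2000. Per kb of all annotated exons, E2f4 stood at 10.5 in primary WT cells, below E2f1 at 11.0, which it overlapped. In immortalized WT cells it stood at 10.5, below E2f1 at 14.9 and E2f3 at 11.4, the latter with overlap. Tfdp1 stayed first and E2f2 last in WT cells of both sets. Gene-level values do not show which transcript was in use.

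**Figure D1:**
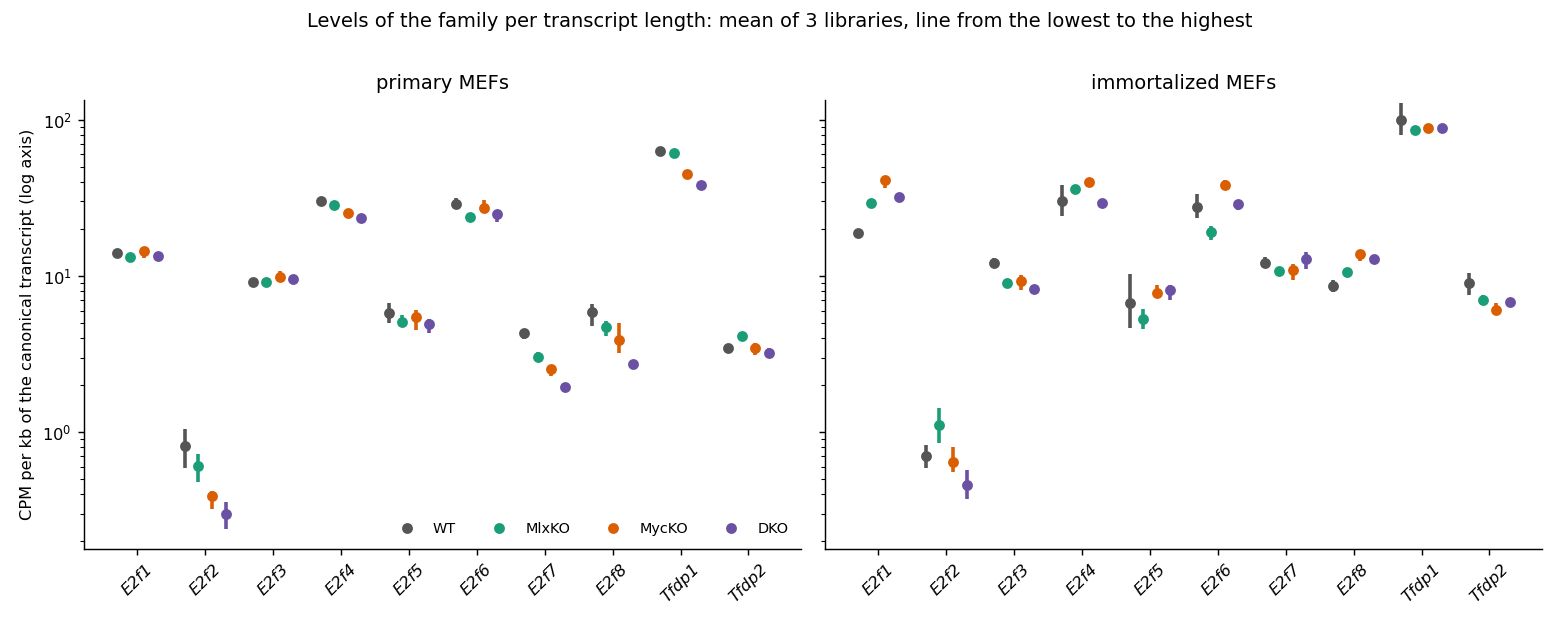
CPM per kb of canonical transcript (log axis) of the 10 members in primary (left) and immortalized (right) MEFs. Points are means of 3 libraries and lines run from the lowest to the highest library. Tfdp1 sits at the top and E2f2 at the bottom in all 8 groups, while E2f7 and E2f8 fall from WT to DKO in primary cells.

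In primary cells, the effect of Myc loss was asked first. MycKO cells had lower E2f2, E2f4, E2f7, E2f8 and Tfdp1 than WT cells, by 0.25 to 0.77 on the log2 scale, and no member rose. Of all 13101 genes tested, 42.3% passed the test in this comparison, 20.4% higher and 21.9% lower, against 5 of 10 members, all lower. In DKO cells the same 5 genes and E2f6 were lower than in WT cells, 6 of 10 members against 49.5% of all genes (24.0% higher and 25.5% lower). The loss of Mlx alone lowered only E2f7, 1 of 10 members against 8.88% of all genes (3.75% higher and 5.14% lower). The plot of fold changes against WT shows these 3 comparisons for both sets of cells. The test throughout was limma on log2(CPM + 1), with Benjamini-Hochberg adjustment over all genes tested and a threshold of 0.05, and the 3 comparisons share their WT libraries. For a single gene an exact permutation test of 3 against 3 libraries cannot go below p = 0.10.

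**Figure D2:**
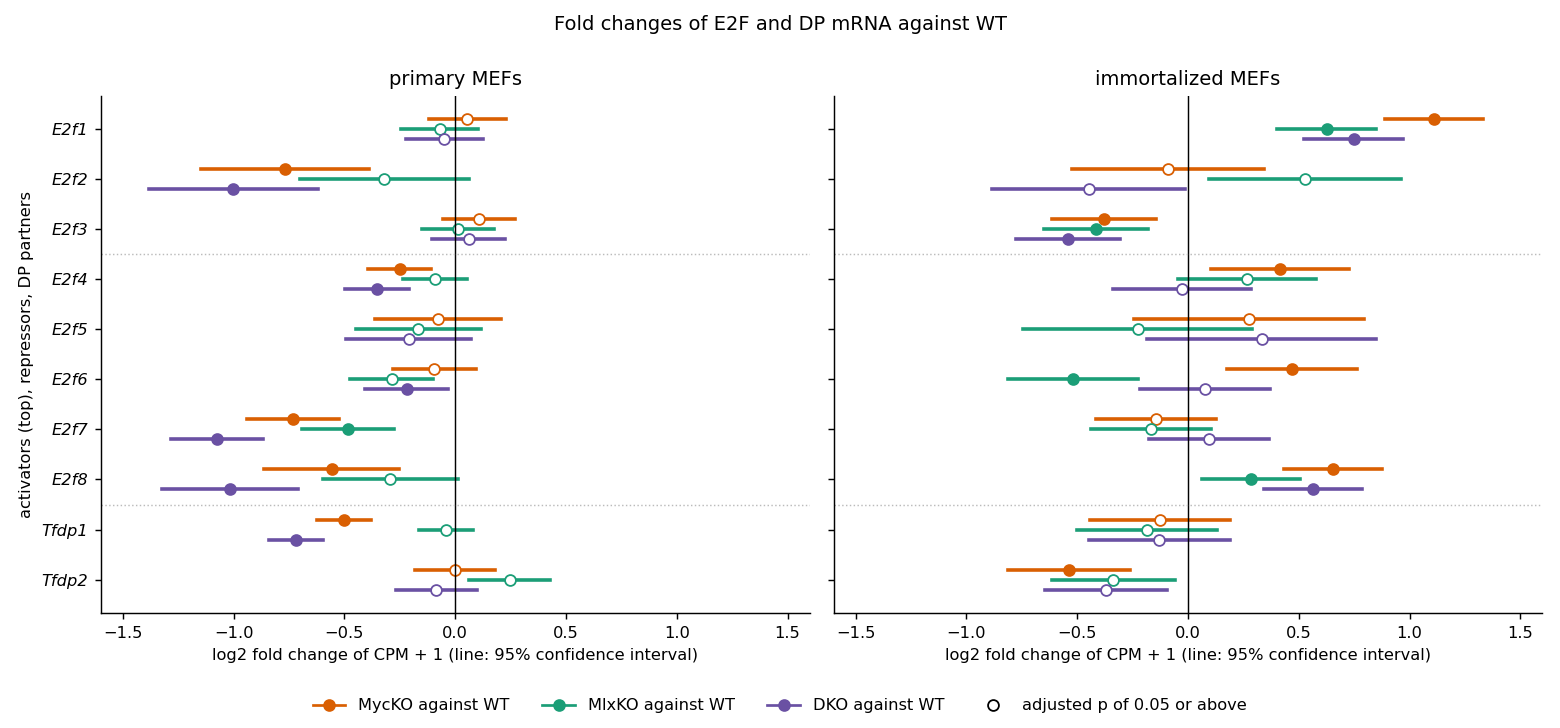
Log2 fold changes of CPM + 1 against WT for the 10 members (rows) in primary (left) and immortalized (right) MEFs, with 95% confidence intervals from limma. Filled points passed an adjusted p of 0.05. Filled primary points all lie below 0, from -0.22 to -1.07, while filled immortalized points lie on both sides, from -0.54 to 1.11.

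E2f1, the activator best known for driving S-phase genes, had 38.5, 40.7 and 35.4 CPM in primary WT libraries and 41.6, 35.9 and 41.6 CPM in MycKO libraries. MlxKO libraries had 35.0, 36.0 and 38.0 CPM and DKO libraries had 38.4, 34.5 and 37.6 CPM. All 4 genotypes overlapped. The log2 fold change of E2f1 was 0.05 in MycKO (95% confidence interval -0.12 to 0.23), -0.07 in MlxKO (-0.24 to 0.10) and -0.05 in DKO (-0.22 to 0.12), so that a change of E2f1 mRNA beyond these bounds was not seen. E2f3, the other abundant activator, had 44.9 to 49.6 CPM in WT, 45.5 to 48.4 in MlxKO, 47.7 to 55.1 in MycKO and 45.8 to 52.1 in DKO libraries. Its intervals were -0.06 to 0.27 in MycKO, -0.15 to 0.18 in MlxKO and -0.10 to 0.22 in DKO.

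E2f2, the least abundant activator, did change. It had 4.01, 5.11 and 2.86 CPM in primary WT libraries, 2.05, 1.57 and 2.04 in MycKO and 1.18, 1.48 and 1.73 in DKO. Every MycKO and DKO library was below every WT library. The log2 fold change was -0.77 ± 0.18 (SE; adjusted p = 0.00248 by limma) in MycKO and -1.002 ± 0.18 (adjusted p = 0.000219) in DKO. MlxKO libraries, with 2.35, 2.99 and 3.54 CPM, overlapped WT (-0.32, adjusted p = 0.296). Since a pseudocount of 1 CPM was added to values this low, these numbers understate the fold change in CPM.

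Among the repressors, E2f7 and E2f8 moved most. They encode the atypical E2Fs, which repress S-phase genes and E2f1 itself. E2f7 had 24.3, 25.3 and 21.6 CPM in primary WT libraries, 16.7, 17.9 and 15.4 in MlxKO, 14.2, 14.9 and 12.5 in MycKO, and 11.0, 10.6 and 10.5 in DKO. The 4 genotypes thus stood in the order WT, MlxKO, MycKO, DKO with no overlap between neighbours. The log2 fold changes were -0.48 ± 0.10 in MlxKO (adjusted p = 0.00533), -0.73 ± 0.10 in MycKO (adjusted p = 1.65e-05) and -1.07 ± 0.10 in DKO (adjusted p = 1.90e-07). E2f8 had 22.6, 24.7 and 17.8 CPM in WT, 17.7, 19.2 and 15.4 in MlxKO, 11.9, 18.4 and 13.3 in MycKO and 10.2, 10.0 and 10.1 in DKO libraries. Only DKO lay wholly below the other groups, and 1 MycKO library (18.4 CPM) was above the lowest WT library. The log2 fold change of E2f8 was -0.56 ± 0.14 in MycKO (adjusted p = 0.00504) and -1.02 ± 0.14 in DKO (adjusted p = 2.20e-05), and -0.29 in MlxKO (adjusted p = 0.229).

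E2f4 and E2f5 encode the E2Fs that occupy promoters together with the pocket proteins p107 and p130 in resting cells. E2f4 had 59.8, 61.9 and 60.1 CPM in primary WT libraries, 47.1, 51.5 and 53.9 in MycKO and 46.7, 48.1 and 46.9 in DKO. Neither knockout overlapped WT, and the log2 fold changes were -0.25 ± 0.07 (adjusted p = 0.00671) in MycKO and -0.35 ± 0.07 (adjusted p = 0.000389) in DKO. In MlxKO, with 54.1 to 59.2 CPM, E2f4 also lay below WT and did not pass the test (-0.09, adjusted p = 0.451). E2f5 stayed between 7.78 and 12.0 CPM over all 12 libraries, with overlap in each comparison. E2f6, which lacks Rb binding and forms part of the PRC1.6 Polycomb complex, had 67.9 to 76.8 CPM in WT and 54.2 to 65.2 in DKO. Its DKO difference of -0.22 passed narrowly (adjusted p = 0.0484) and failed when any 1 of 8 of the 12 libraries was left out and in 5 of 8 other settings. In MlxKO, E2f6 had 55.8 to 59.4 CPM, all below WT, with a difference of -0.29 and an adjusted p of 0.0528.

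Of the DP partners, Tfdp1 had 170.2, 172.9 and 158.6 CPM in primary WT libraries and 163.1, 160.9 and 162.6 in MlxKO. MycKO libraries had 119.2, 121.2 and 112.5 CPM and DKO libraries 101.8, 103.3 and 98.2. MlxKO overlapped WT, whereas MycKO lay below WT and DKO lay below MycKO. The log2 fold change of Tfdp1 was -0.50 ± 0.06 in MycKO (adjusted p = 2.98e-06) and -0.72 ± 0.06 in DKO (adjusted p = 4.40e-08), and its difference in MlxKO was -0.04 (95% confidence interval -0.16 to 0.08). Tfdp2, the less abundant partner, had 25.3 to 27.1 CPM in WT and 23.1 to 32.8 over the knockout libraries. Its MlxKO libraries (29.1 to 32.8 CPM) all lay above WT, with a difference of 0.25 and an adjusted p of 0.0870.

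**Figure D3:**
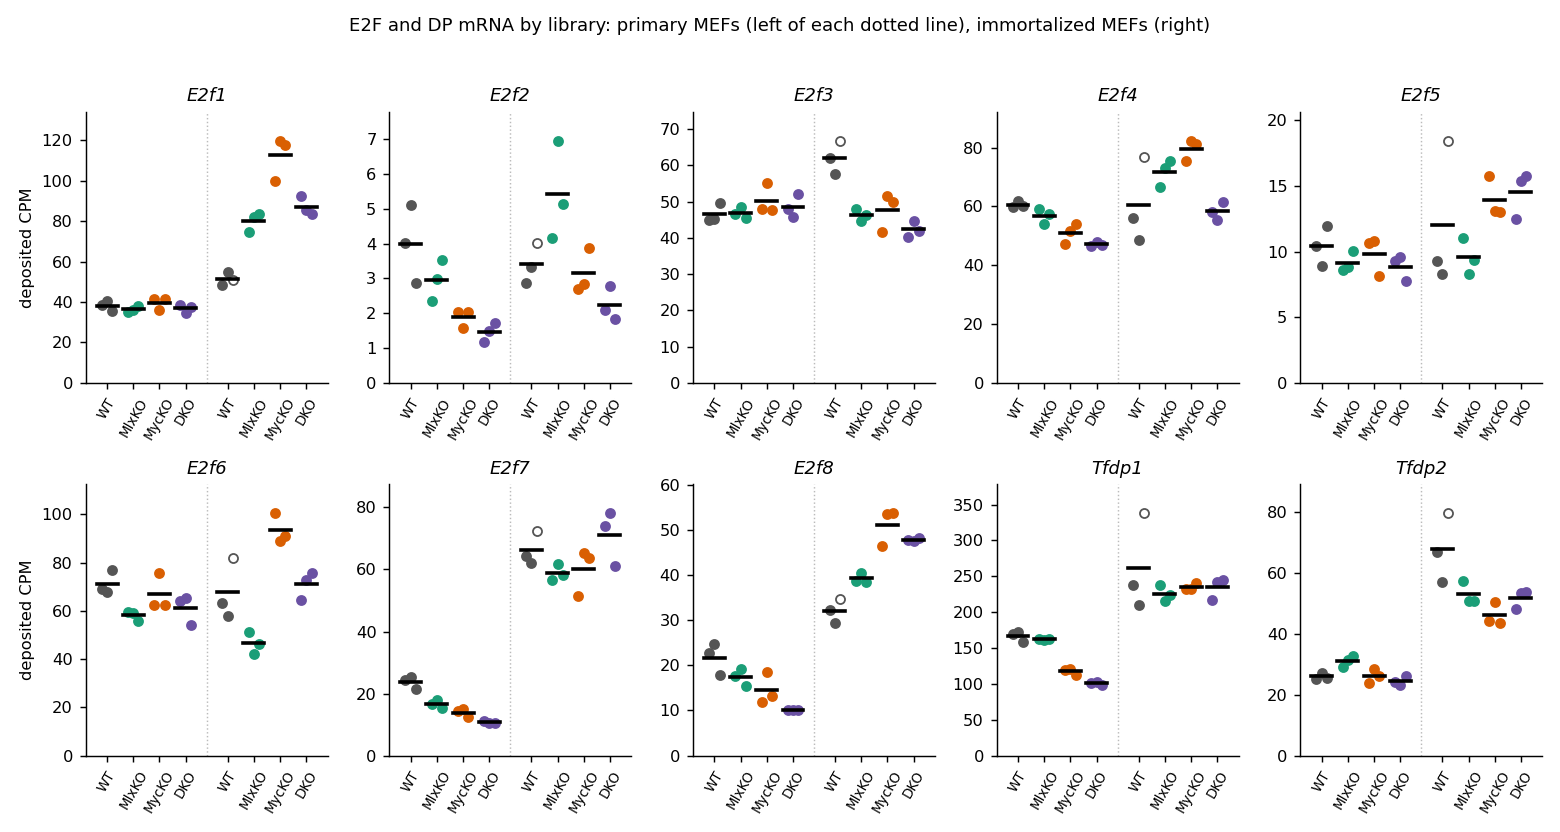
Deposited CPM of each member in every library, with primary MEFs left and immortalized MEFs right of the dotted line in each panel, which were scaled apart. Bars are means of 3 libraries and the open point is the immortalized library WT4. Tfdp1, E2f7 and E2f8 step down over the primary genotypes, and E2f1 and E2f8 are above WT in each immortalized knockout.

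The DKO cells were next set against MycKO cells, which differ from them in the Mlx genotype and come from a separate pool of embryos. Myc mRNA was also lower in DKO than in MycKO cells (-0.29, adjusted p = 0.00634 by limma), with no overlap of libraries. E2f7, E2f8 and Tfdp1 were lower in DKO, and no member was higher: 3 of 10 members against 21.5% of all genes (10.6% higher and 11.0% lower). The differences were -0.34 ± 0.10 for E2f7 (adjusted p = 0.0185), -0.46 ± 0.14 for E2f8 (adjusted p = 0.0308) and -0.22 ± 0.06 for Tfdp1 (adjusted p = 0.0115). No DKO library overlapped a MycKO library for these genes. Without the library MycKO10, which held the highest MycKO level of E2f8, the difference of E2f8 was -0.28 and no longer passed, and E2f8 also did not pass when any DKO library was left out. Without DKO14, 1 of the 3 genes passed, and without DKO15 none did. The Myc-by-Mlx interaction, which asks whether Mlx loss acts differently with and without Myc, was called for 0 of 10 members in primary cells by limma, against 13.5% of all genes (7.47% higher and 6.07% lower). Before adjustment 2 members were under 0.05 in limma's test, Tfdp1 at -0.17 (adjusted p = 0.186) and Tfdp2 at -0.33 (adjusted p = 0.0876), and edgeR and DESeq2 each called 0 members as well.

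The known targets of the family were read from a list of 28 classic E2F target genes of the G1/S transition. All 28 fell in primary MycKO cells and all 28 fell in DKO cells, the median differences being -0.78 and -1.22 on the log2 scale, beside medians over all genes tested of 0.00 and -0.00. In MlxKO cells 16 of the 28 fell (median -0.28), and 23 of the 28 were lower in DKO than in MycKO cells (median -0.37). Over all genes, 21.9% were lower in MycKO, 5.14% in MlxKO, 25.5% in DKO and 11.0% in DKO against MycKO. Summed over the list, WT libraries had 1873 to 2002 CPM, MlxKO 1545 to 1628, MycKO 1189 to 1289 and DKO 893 to 923. The falls in MycKO were largest for Ccne2, which encodes cyclin E2 (-1.12, adjusted p = 4.23e-07), and Orc1, a subunit of the origin recognition complex (-1.02, adjusted p = 3.32e-05). In DKO they were largest for Cdc6, a licensing factor (-1.63, adjusted p = 1.55e-08), and Orc1 (-1.61, adjusted p = 1.83e-07). In MlxKO, Orc1 (-0.54, adjusted p = 0.0294) and Rrm2, a subunit of ribonucleotide reductase (-0.52, adjusted p = 0.000185), fell most. These falls stood beside E2f1 and E2f3 differences of 0.11 or less in size in MycKO, MlxKO and DKO cells. Other members were lower in MycKO and DKO: E2f2 (-0.77 and -1.002), Tfdp1 (-0.50 and -0.72), E2f4, E2f7 and E2f8. The part of any member in the falls of the target genes was not tested.

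**Figure D4:**
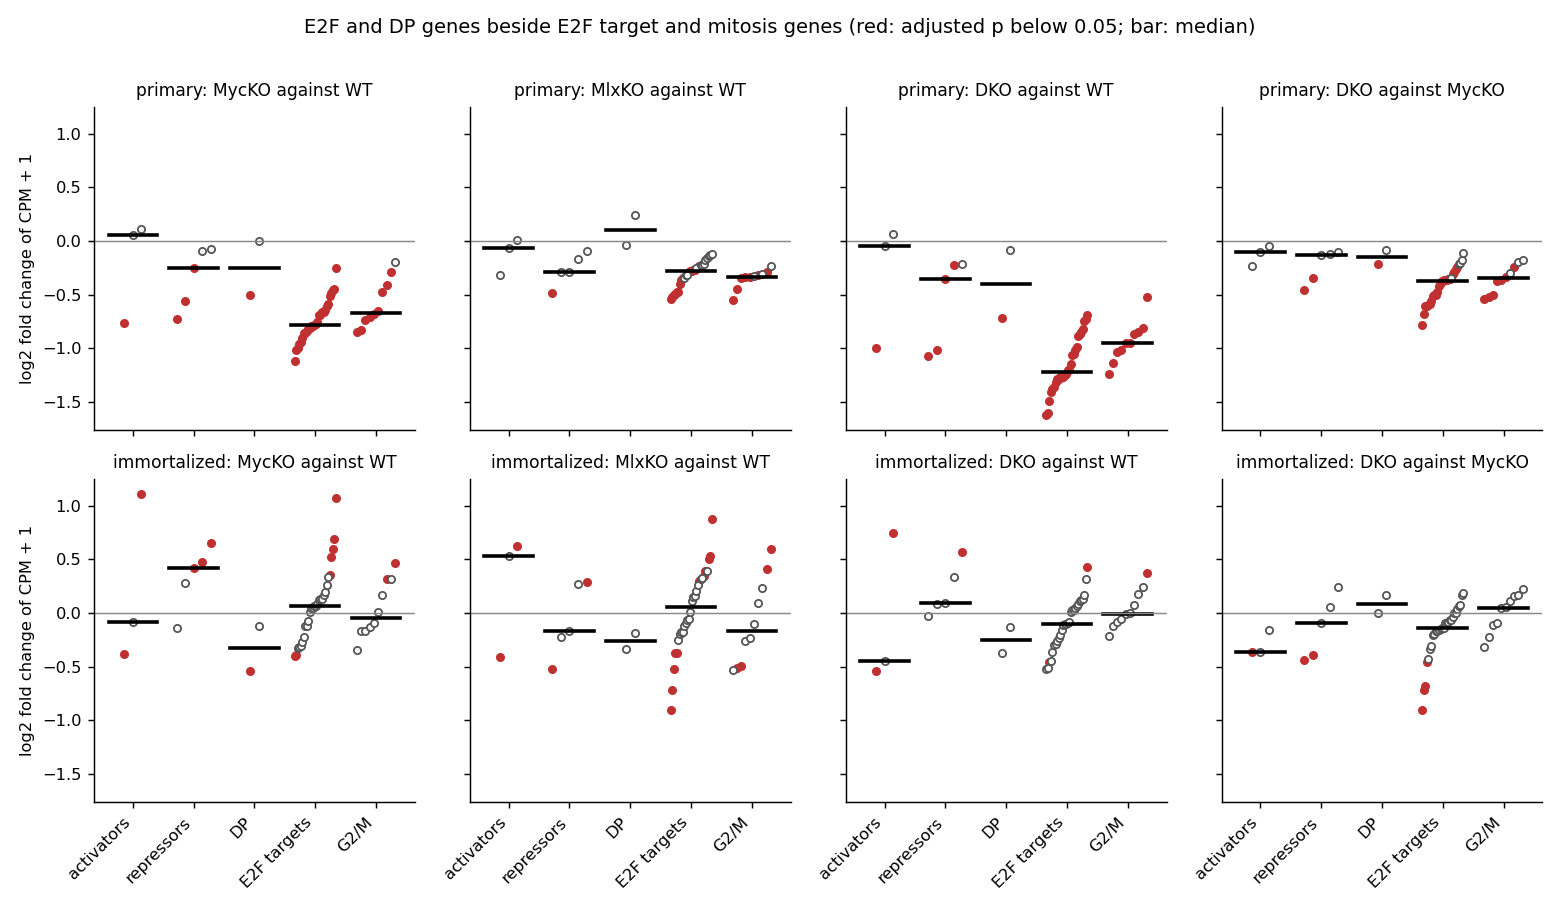
Log2 fold changes of CPM + 1 for the activators, repressors and DP partners beside 28 E2F target genes and 10 G2/M genes, in 4 comparisons of primary (top) and immortalized (bottom) MEFs. Each point is a gene, red where the adjusted p is below 0.05, and bars are medians. The target genes lie below 0 in all 4 primary panels and on both sides of 0 in the immortalized ones.

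Genes of mitosis and G2/M, which are not classic G1/S targets, moved the same way in primary cells: 9 of 10 fell in MycKO (median -0.67), 7 of 10 in MlxKO (median -0.33) and 10 of 10 in DKO (median -0.95). Of all genes tested against WT, 25.5% fell after the loss of both factors, 21.9% after that of Myc alone and 5.14% after that of Mlx alone. Macrophage markers also differed between these groups. All 10 were lower in MycKO and in DKO than in WT, with sums of 299 to 575 CPM in WT, 327 to 404 in MlxKO, 51.6 to 76.9 in MycKO and 112 to 247 in DKO. Of the 10 macrophage markers, 8 were higher in DKO than in MycKO, beside 10.6% of all genes. Of the 10 fibroblast markers, 9 rose and 1 fell on the loss of Myc alone, beside 20.4% of all genes higher. On the loss of both factors 8 rose and 1 fell, beside 24.0% higher. The loss of Mlx alone raised 3 and lowered 1, beside 3.75% higher. The 5 epithelial markers summed to 16.5 to 19.9 CPM in WT and 1.95 to 4.78 in the knockout libraries, and the 5 endothelial markers to 13.9 to 15.5 and 3.52 to 8.83. Of each of these lists only 2 genes were high enough to be tested. Both epithelial genes were lower in each knockout. Of the 2 endothelial genes, 1 was lower in MycKO and 1 in MlxKO, while in DKO 1 was lower and 1 higher. Their part in the results on the E2F family was not tested. The study reports that primary MycKO and DKO cells were growth-arrested, with fewer cells in S phase, whereas MlxKO cells grew nearly as WT cells did. Immortalized cells of every genotype proliferated. The part of growth arrest in these values was not tested. In bulk libraries fewer cells of a type, or in a phase, and less RNA per cell cannot be told apart.

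Upstream of the family, 18 genes of the Rb family, D and E cyclins, CDKs and CDK inhibitors were read. Ccne1, Ccne2 and Rbl1 are also among the 28 target genes, so their values were counted in both lists. In primary MycKO cells 5 rose and 5 fell. The inhibitors Cdkn1c, for p57 (1.42, adjusted p = 8.46e-08), and Cdkn2b, for p15 (1.01, adjusted p = 1.47e-07), rose most, and Ccne2 and Rbl1, which encodes p107 (-0.64, adjusted p = 9.36e-05), fell most. In MlxKO cells 1 rose (Cdkn2b, 0.52, adjusted p = 0.00126) and 1 fell (Ccne2, -0.40, adjusted p = 0.0246). In DKO cells 4 rose, led by Cdkn1c (1.44, adjusted p = 4.64e-08), and 7 fell, led by Ccne2 (-1.49, adjusted p = 1.36e-08). Against MycKO, DKO cells had 1 of the 18 higher, Cdkn1b for p27 (0.45, adjusted p = 0.000498), and 6 lower, among them Ccnd1, for cyclin D1 (-1.03, adjusted p = 6.70e-09), and Cdk6 (-0.58, adjusted p = 0.00111). The interaction was called for 4 of the 18, all lower, with Cdkn2b (-1.10, adjusted p = 1.07e-05) and Ccnd1 (-1.002, adjusted p = 7.63e-07) at the extreme, while 2 of the 28 target genes were called (Cdt1, -0.47, adjusted p = 0.0256, and Mcm2, -0.36, adjusted p = 0.0187). These counts stand beside 42.3% of all genes called in MycKO, 8.88% in MlxKO and 49.5% in DKO. The shares were 21.5% in DKO against MycKO and 13.5% for the interaction.

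The complexes that repressor E2Fs join were read next. MuvB is the core that binds p130 and E2f4 in resting cells and Mybl2 or Foxm1 later. With its partners it had 8 genes that were tested. Of these, Mybl2 and Rbl1 are also among the E2F target genes, and Rbl1 and Rbl2 among the Rb family genes above. In primary MycKO cells 5 of the 8 fell, led by Mybl2 (-0.84, adjusted p = 4.06e-06) and Rbl1, and in MlxKO cells 2 fell, Mybl2 (-0.47, adjusted p = 0.00616) and Foxm1 (-0.28, adjusted p = 0.0109). In DKO cells 5 fell, with Mybl2 at -1.20 (adjusted p = 5.80e-08) and Foxm1 at -0.91 (adjusted p = 1.28e-08), while Rbl2, which encodes p130, rose by 0.38 (adjusted p = 0.000791). Of 13 PRC1.6 partners of E2F6, 4 fell in MycKO (Cbx3, -0.49, adjusted p = 0.000437, and Wdr5, -0.42, adjusted p = 0.000330, at the extreme), and 7 fell and 1 rose in DKO, beside 42.3% and 49.5% of all genes called in these comparisons. Germline genes that E2F6 and PRC1.6 silence were mostly below the level for testing: 2 of 10 were tested, and Tdrkh rose in MycKO (0.39, adjusted p = 0.0429) and DKO (0.59, adjusted p = 0.00317).

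In immortalized cells the same genes were asked after the same losses. The study reports that most immortalized MycKO cells had become tetraploid or pseudo-tetraploid, while DKO cells stayed euploid. The part of ploidy in the immortalized comparisons was not tested. MycKO cells had higher E2f1, E2f4, E2f6 and E2f8 and lower E2f3 and Tfdp2 than WT cells, 6 of 10 members against 48.0% of all 12880 genes tested (24.4% higher and 23.5% lower). MlxKO cells had higher E2f1 and E2f8 and lower E2f3 and E2f6, 4 of 10 members against 38.9% (19.1% higher and 19.9% lower). DKO cells had higher E2f1 and E2f8 and lower E2f3, 3 of 10 members against 18.9% (10.4% higher and 8.51% lower). Without WT4, 7, 6 and 4 members were called in MycKO, MlxKO and DKO, and of the 12855 genes then tested 6945, 6028 and 2834 were called, beside 6176, 5014 and 2434 of 12880 with all libraries.

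E2f1 had 48.5, 55.0 and 50.9 CPM in immortalized WT libraries, 74.7, 81.9 and 83.3 in MlxKO, 100.045, 119.7 and 117.8 in MycKO and 92.3, 85.3 and 83.6 in DKO. Every knockout library was above every WT library, and MycKO was the highest group with no overlap. The log2 fold changes were 1.11 ± 0.10 in MycKO (adjusted p = 5.79e-06), 0.63 ± 0.10 in MlxKO (adjusted p = 0.00100) and 0.75 ± 0.10 in DKO (adjusted p = 0.000585). Without WT4 they were 1.104, 0.62 and 0.74. E2f3 had 61.9, 57.6 and 66.8 CPM in WT and between 40.3 and 51.6 CPM in all 9 knockout libraries, with no overlap. It fell by 0.38 in MycKO (adjusted p = 0.0130), 0.42 in MlxKO (adjusted p = 0.0110) and 0.54 in DKO (adjusted p = 0.00576), and without WT4 by 0.33, 0.36 and 0.49. The activators therefore moved apart: E2f1 made up 59.4% ± 2.90 (SD, n = 3) of the summed activator level per kb in WT cells and 74.1% ± 1.22, 80.5% ± 0.256 and 78.4% ± 1.63 in MlxKO, MycKO and DKO cells. In primary cells this share was 58.4% ± 2.36 in WT and between 57.5% and 58.6% in the knockout groups.

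E2f2 had 2.87, 3.33 and 4.02 CPM in immortalized WT libraries and 4.16, 6.96 and 5.15 in MlxKO, and all MlxKO libraries were above WT, without passing the test (0.53, adjusted p = 0.0525). Without WT4 it did pass (0.63, adjusted p = 0.0236). In MycKO, with 2.71, 2.86 and 3.88 CPM, it overlapped WT, and in DKO, with 2.10, 2.77 and 1.82 CPM, it lay below WT and did not pass (-0.45, adjusted p = 0.132).

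E2f8 had 32.3, 29.3 and 34.8 CPM in immortalized WT libraries, 38.7, 40.5 and 38.5 in MlxKO, 46.4, 53.4 and 53.6 in MycKO and 47.7, 47.6 and 48.2 in DKO. Each knockout lay above WT. The log2 fold changes were 0.66 ± 0.10 in MycKO (adjusted p = 0.000306), 0.56 ± 0.10 in DKO (adjusted p = 0.00334) and 0.28 ± 0.10 in MlxKO (adjusted p = 0.0438), and without WT4 0.71, 0.62 and 0.34. The MlxKO difference failed in 10 of the 12 fits with 1 library left out, WT4 and MycKO9 being the libraries that could be spared. E2f7, its close relative, had 62.1 to 72.6 CPM in WT and 51.5 to 78.1 over the knockout libraries and was not called, although all MlxKO libraries lay below WT, with 95% confidence intervals of -0.41 to 0.13 in MycKO, -0.44 to 0.10 in MlxKO and -0.18 to 0.37 in DKO.

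E2f6 had 63.4, 57.7 and 82.1 CPM in immortalized WT libraries, the last of these being WT4, 51.3, 41.9 and 46.5 in MlxKO, 100.4, 88.9 and 90.9 in MycKO and 64.6, 72.7 and 75.5 in DKO. MycKO lay above and MlxKO below WT, with log2 fold changes of 0.47 ± 0.14 (adjusted p = 0.0129) and -0.52 ± 0.14 (adjusted p = 0.0107), which were 0.62 and -0.37 without WT4. DKO overlapped WT (0.08, adjusted p = 0.709). E2f4 had 56.2, 48.5 and 76.9 CPM in WT, 66.7, 73.1 and 75.5 in MlxKO, 75.4, 82.3 and 81.2 in MycKO and 58.0, 55.4 and 61.6 in DKO. Because WT4 was at 76.9 CPM, MycKO overlapped WT, its log2 difference being 0.41 ± 0.14 (adjusted p = 0.0307) and 0.60 (adjusted p = 0.000366) without WT4. The call was kept in 8 of 12 fits with 1 library left out, being lost without WT2, WT3, MycKO10 or MycKO11, and in 7 of 8 other settings, being lost with only the groups compared (adjusted p = 0.111). The MlxKO difference of E2f4, 0.27 with all libraries (adjusted p = 0.154), was 0.45 (adjusted p = 0.00399) without it. E2f5 had 9.25 and 8.32 CPM in WT2 and WT3 and 18.4 in WT4, beside 13.0 to 15.7 in MycKO and 12.5 to 15.7 in DKO. It was called in no comparison with all libraries, and without WT4 it was higher by 0.61 in MycKO (adjusted p = 0.00522) and by 0.66 in DKO (adjusted p = 0.00823).

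Tfdp1 had 237.3, 210.6 and 337.6 CPM in immortalized WT libraries and between 215.5 and 244.9 CPM over the 9 knockout libraries. The knockouts lay within the range of WT, and the differences for MycKO, MlxKO and DKO cells were -0.13, -0.18 and -0.13 with all libraries and 0.07, 0.01 and 0.07 without WT4, so that its sign rested on that library. Tfdp2 had 67.1, 56.9 and 79.6 CPM in WT, 57.5, 50.9 and 50.9 in MlxKO, 44.4, 50.6 and 43.4 in MycKO and 48.3, 53.4 and 53.8 in DKO. It fell by 0.54 in MycKO (adjusted p = 0.00462) and, without WT4, by 0.42 (adjusted p = 0.00843). In MlxKO (-0.34, adjusted p = 0.0526) and DKO (-0.37, adjusted p = 0.0598) it did not pass.

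Against immortalized MycKO cells, DKO cells had lower E2f1 (-0.36, adjusted p = 0.0185), E2f4 (-0.44, adjusted p = 0.0349) and E2f6 (-0.39, adjusted p = 0.0453), 3 of 10 members against 29.4% of all genes (14.8% higher and 14.6% lower). The libraries did not overlap for these genes. None of the 3 passed when any of MycKO10, MycKO11, DKO14 or DKO15 was left out, and 1 passed without MlxKO7, MycKO9 or DKO13. Myc mRNA was lower in every DKO library than in every MycKO library here too, without passing limma's test (-0.97, adjusted p = 0.115). The Myc-by-Mlx interaction was called for 5 of 10 members against 47.4% of all genes (23.7% higher and 23.8% lower). It was -0.99 ± 0.15 for E2f1 (adjusted p = 0.000240), -0.89 ± 0.28 for E2f2 (adjusted p = 0.0214), -0.71 ± 0.20 for E2f4 (adjusted p = 0.0127), -0.38 ± 0.14 for E2f8 (adjusted p = 0.0482) and 0.50 ± 0.18 for Tfdp2 (adjusted p = 0.0364). For E2f1 the loss of Mlx went with a higher level where Myc was present (0.63) and a lower level where it was lost (-0.36). For E2f4 these differences were 0.27, which did not pass (adjusted p = 0.154), and -0.44, which did. Between 2 and 4 of the 5 stayed called when 1 library was left out, and without WT4, where 56.7% of all genes were called, the 4 members were E2f1, E2f2, E2f4 and E2f8.

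**Figure D5:**
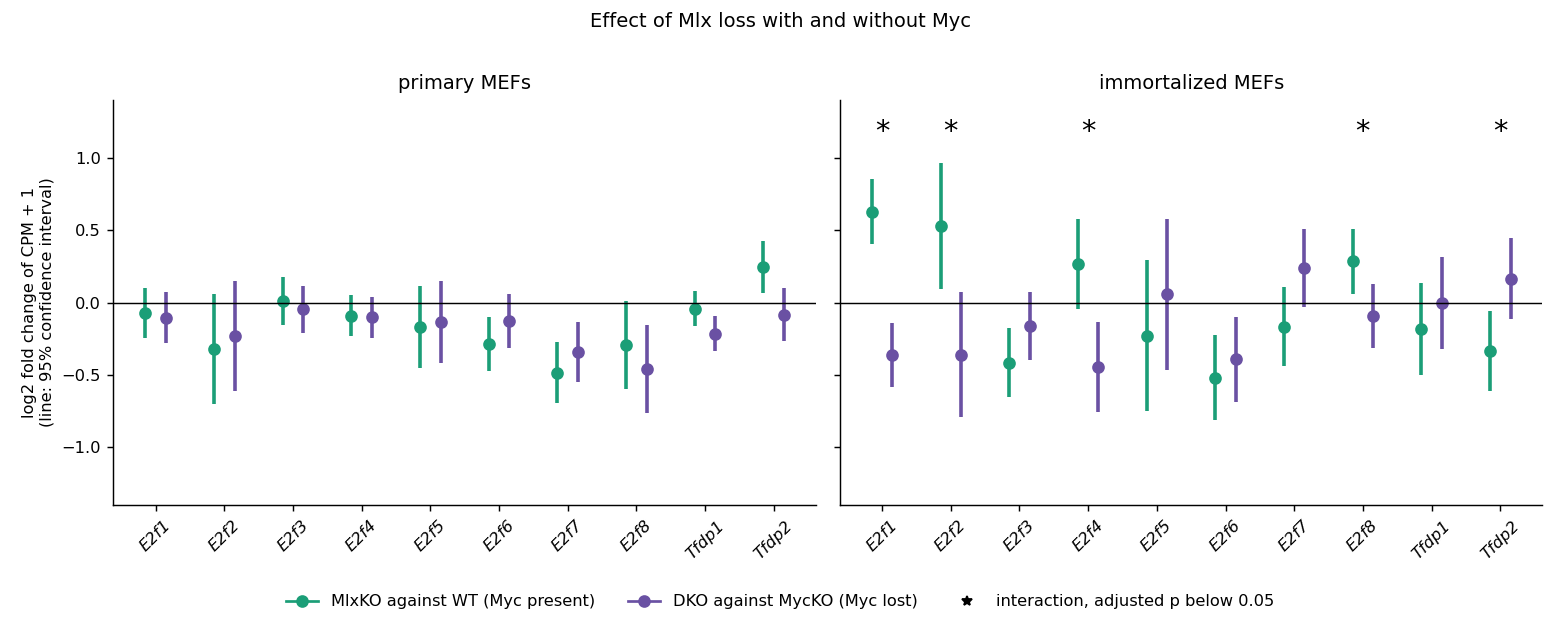
Log2 fold changes of CPM + 1 on the loss of Mlx where Myc is present (MlxKO against WT) and where it is lost (DKO against MycKO), with 95% confidence intervals from limma, in primary (left) and immortalized (right) MEFs. A star marks an interaction with an adjusted p below 0.05. Stars stand over E2f1, E2f2, E2f4, E2f8 and Tfdp2 in immortalized cells and over no member in primary cells.

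In immortalized cells the 28 target genes went in both directions. In MycKO 5 rose and 2 fell (median 0.06), in MlxKO 6 rose and 5 fell (median 0.06), in DKO 1 rose and 1 fell (median -0.10), and against MycKO 4 were lower in DKO (median -0.14). Over all genes, 48.0% were called in MycKO, 38.9% in MlxKO, 18.9% in DKO and 29.4% in DKO against MycKO. Without WT4, 10 rose and 1 fell in MycKO, 10 rose and 4 fell in MlxKO and 3 rose and 1 fell in DKO. Mybl2, which encodes B-Myb, was highest among those that rose in MycKO (1.07, adjusted p = 0.00264) and MlxKO (0.88, adjusted p = 0.0116). In MlxKO, Ccne2 (-0.90, adjusted p = 0.00978) and Rbl1 (-0.72, adjusted p = 0.00181) fell most. Their summed level was 3686 to 4310 CPM in WT, 3840 to 3999 in MlxKO, 3869 to 3929 in MycKO and 3624 to 3783 in DKO, and each knockout range overlapped that of WT. Of the 10 G2/M genes, 2 rose in MycKO, 2 rose and 2 fell in MlxKO and 1 rose in DKO, and without WT4 these counts were 4 higher, 3 higher and 2 lower, and 2 higher.

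Of the 18 genes of the Rb family, cyclins, CDKs and inhibitors, 9 rose and 5 fell in immortalized MycKO cells, with Ccnd1 (1.52 ± 0.47, adjusted p = 0.0191) and Cdkn2d, for p19 (1.30, adjusted p = 3.39e-05), highest and Cdkn1b (-0.60, adjusted p = 0.00288) and Rbl2 (-0.59, adjusted p = 0.000771) lowest. In MlxKO cells 6 rose and 5 fell, with Cdkn1c at 1.395 (adjusted p = 0.00642) and Rb1, the retinoblastoma gene, at -0.84 (adjusted p = 0.00219). In DKO cells 4 rose and 2 fell, with Ccnd1 at 1.98 (adjusted p = 0.0137) and Cdk6 at -1.48 (adjusted p = 0.00364). The size of the Ccnd1 differences rested on WT4: the WT mean was 225 ± 147 CPM (SD, n = 3), and without WT4 Ccnd1 stood at 0.70 in MycKO (adjusted p = 2.70e-05) and 1.17 in DKO (adjusted p = 1.36e-06), while Cdkn2d stood at 1.43 in MycKO. The counts of this list without WT4 were 9 higher and 4 lower in MycKO, 6 and 6 in MlxKO, and 4 and 2 in DKO. Among 8 MuvB genes, 3 rose and 2 fell in MycKO, 2 rose and 4 fell in MlxKO, and Foxm1 rose in DKO (0.52, adjusted p = 0.0303). Without WT4, 3 rose and 1 fell in MycKO, 2 rose and 4 fell in MlxKO and 2 rose in DKO. Of the 13 PRC1.6 partners, 6 fell in MycKO, led by Rybp (-0.75, adjusted p = 0.00105), 4 fell and 1 rose in MlxKO, again with Rybp lowest (-1.04, adjusted p = 0.000368), and 4 fell in DKO, among them Max (-0.52, adjusted p = 0.00498), the partner of Myc. Without WT4, 2 rose and 6 fell in MycKO, 1 rose and 3 fell in MlxKO and 3 fell in DKO. Of the germline genes, 2 of 10 were tested here too. Tdrkh was higher in MycKO than in WT (1.122, adjusted p = 0.00122, and 1.191 without WT4). It was lower in DKO than in MycKO (-1.558, adjusted p = 0.000169). E2f6 moved the same way as Tdrkh in both comparisons (0.47 and -0.39). The part of E2f6 in the level of Tdrkh was not tested. Of all genes tested with all libraries, 48.0%, 38.9% and 18.9% had passed in MycKO, MlxKO and DKO, beside which these lists are to be read.

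The balance within the family was described by the ratio of E2f1 to the sum of E2f7 and E2f8 per kb, with no test. In primary cells it was 1.38 ± 0.0886 (SD, n = 3) in WT, 1.73 ± 0.234 in MlxKO, 2.32 ± 0.525 in MycKO and 2.88 ± 0.132 in DKO. Of these genes E2f1 had passed the test in no primary comparison. In immortalized cells it was 0.914 ± 0.118 in WT, 1.37 ± 0.0693 in MlxKO, 1.66 ± 0.0103 in MycKO and 1.23 ± 0.0702 in DKO, and every knockout library was above every WT library. There E2f1 had risen as well as E2f8. Genes whose pattern was most like that of a member were ranked by Pearson's r of log2(CPM + 1) over the 12 libraries of a set, which share genotypes. In primary cells Tfdp1 was most like Grwd1 (r = 0.996), Npm1 (0.994) and Ncl (0.993), E2f8 like Mcph1 (0.974), Mki67 (0.968) and Ermp1 (0.965), E2f4 like Myo19 (0.979), Prim1 (0.968) and Prep (0.966), and E2f1 like Otud3 (0.929), Ap1s1 (0.928) and Chtf8 (0.913). In immortalized cells E2f1 was most like St3gal3 (0.988), Plekho2 (0.981) and Ehd1 (0.977), E2f8 like Grk5 (0.979), 1810055G02Rik (0.969) and Dlgap4 (0.968), E2f4 like Ss18 (0.951), Rbpms2 (0.951) and Shank2 (0.948), and Tfdp1 like Cxcl12 (0.969), Pgrmc1 (0.957) and Ccnb1 (0.951). The nearest genes of these 4 members shared no name between the sets. Immortalized Tfdp1 was at 337.6 CPM in WT4 and between 210.6 and 244.9 CPM in the other libraries. Likeness was not ranked without WT4, so the weight of that library in these ranks was not tested.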

How the data were processed

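RNA-seq values of 24 MEF libraries, 3 for each of 4 genotypes in each set of cells, were used as deposited. The authors made directional poly-A libraries, read them on a NovaSeq and used CLC Genomics Workbench against GRCm39. Their files hold CPM, a signal proportional to reads per gene that the authors scaled between libraries in a way not given in the sources used here. All values above 0 were whole multiples of what a single read is worth (within 0.05 reads), which gave the depth. Columns were matched to genotypes by name.

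For each table of 12 libraries, limma 3.58.1 (R 4.3.3) was run on log2(CPM + 1) with its variance trend, all 4 genotypes entering together. A gene was kept if 3 or more libraries reached 1 CPM. P-values are 2-sided and were adjusted after Benjamini and Hochberg over every gene kept, with 0.05 as the threshold. The alternatives were a pseudocount of 0.1 CPM, no filter, library totals or median ratios as scaling, fits of only the groups compared, DESeq2 1.42.0 or edgeR 4.0.16 applied to recovered reads, calls shared by the 3 tools, and each library left out. Scripts were tested on simulated data. Members were always named, and of each other list at most the 2 largest rises and 2 largest falls past the threshold per comparison, except for 1 gene that is not reported here. The members and lists were chosen with earlier results of these data known. Places and lengths are those of GENCODE vM39, and figures were drawn with matplotlib 3.10.9.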

Additional observations from a re-analysis of the deposited data

Results flagged for a closer look

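In immortalized cells limma called the Myc-by-Mlx interaction for 5 of 10 members, a share close to the 47.4% of all genes. These members were E2f1 (-0.99 on the log2 scale), E2f2 (-0.89), E2f4 (-0.71), E2f8 (-0.38) and Tfdp2 (0.50). E2f1 rose by 0.63 in MlxKO against WT and fell by 0.36 in DKO against MycKO, and its interaction passed with every library left out in turn and in all other settings. With 1 library left out, the call was kept in 12 of 12 fits for E2f4, 8 for E2f2, 4 for Tfdp2 and 2 for E2f8.

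E2f8 moved in opposite directions in the 2 sets of cells: DKO against WT was -1.02 in primary and 0.56 in immortalized cells, with every DKO library on one side of every WT library in each set. The difference between the sets was not tested, because their values were scaled apart.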

How the results depend on the processing

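The number of members called in primary MlxKO against WT was 1 and became 2 with median-ratio scaling, with only the groups compared, with edgeR and with DESeq2, E2f6 being the gene added, while calls over all genes went from 1164 to between 1143 and 1482. In immortalized MycKO against WT it was 6 and became 3 with only the groups compared, where E2f3, E2f4 and E2f6 no longer passed and calls over all genes went from 6176 to 4184. With 1 library left out, the count ranged from 1 to 3 in primary MlxKO (3 without MycKO10, where 2025 of all genes were called), from 0 to 3 in primary DKO against MycKO (0 without DKO15), from 2 to 6 in immortalized MlxKO (2 without MlxKO6, 6 without WT4), from 0 to 3 in immortalized DKO against MycKO (0 without MycKO10, MycKO11, DKO14 or DKO15) and from 2 to 4 for the immortalized interaction (2 without WT2, MlxKO6 or MycKO11). The cause was not tested. No called difference of a member reversed. Of 1200 differences of members with 1 library left out, 73 lost and 11 gained their call, and the sign of 36 that were not called changed. All 100 kept their side of the threshold with a pseudocount of 0.1 CPM, 98 of 100 with edgeR and 96 of 100 with DESeq2. No paired analysis was possible because nothing links the numbers in the column names to the replicates named in the labels. E2f2, at 1.18 to 6.96 CPM, is the member that depth limits most.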
